A study of Mus musculus with 6 samples.

Results

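The small heat shock proteins were followed in vascular smooth muscle cells cultured from mouse aorta, cells that in the artery wall contract and set its tone. Members were all genes in the deposited tables whose symbol is Cryab or Hspb with a number. The tables held 6 such genes (Cryab, Hspb1, Hspb2, Hspb7, Hspb8 and Hspb11) of 7384 genes listed. Of the 10 mouse genes usually counted in the family, 5 were in the tables, and Hspb3, Hspb6, Hspb9, Cryaa and Odf1 were not analysed here. RNA was sequenced in 3 samples of cells given a small interfering RNA that targets Sirt6, whose product removes acyl groups from histones using NAD (siSirt6), and in 3 control samples (Control), each for 48 h. The labels name no strain, age or sex, and do not state how the Control cells were handled. They do not say whether the 3 replicates of a group came from separate animals or cultures, so the p-values measure only the spread between these samples, which may be technical.

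Small heat shock proteins are chaperones that bind unfolding proteins without ATP and hold them until ATP-driven chaperones refold them or they are degraded. They share a conserved alpha-crystallin domain and form oligomers whose size changes with phosphorylation. In muscle they associate with desmin, actin and filamin and are abundant in the resting cell, while several members are also induced by stress through heat shock factor HSF1. Hspb11 carries the family's symbol but encodes IFT25, a component of intraflagellar transport, and does not share the alpha-crystallin domain. It is described because its symbol meets the rule, and it was left out of sums over the family.

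All 6 genes were higher in the siSirt6 samples. Hspb7 had the largest ratio of group means at 2.33-fold, followed by Cryab at 1.79-fold, Hspb2 at 1.74-fold, Hspb1 at 1.55-fold, Hspb11 at 1.54-fold and Hspb8 at 1.24-fold. All 6 passed the filter on low values, 10 or more in 3 or more libraries, which 7179 of the listed genes passed. The tables held almost only genes that differed: 99.8% of tested genes were called in either direction, 50.5% higher and 49.3% lower, at an adjusted p of 0.05 with limma. A call therefore says little about these genes, and their sizes and order are given instead. The median log2 fold change was 0.71 over the 6 genes and 0.79 over the 5 without Hspb11, against 0.085 over all tested genes. With a trend on transcript length and GC content removed these medians were 0.38, 0.34 and -0.005.

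Upstream windows of Hspb7, Hspb1 and Hspb8, the members with the largest, an intermediate and the smallest change among the chaperones that RefSeq's promoter table (build GRCm38.p6) covers, are shown so that their letters can be set beside the changes. Each is the 250 bases before the annotated start, on the gene's own strand, with capitals for matches to GAANNTTC or TTCNNGAA, the core of the element bound by heat shock factors. Of the 6 members, 4 were in that table; Cryab and Hspb2 were not.
Hspb7, chr4:141420529-141420778, plus strand: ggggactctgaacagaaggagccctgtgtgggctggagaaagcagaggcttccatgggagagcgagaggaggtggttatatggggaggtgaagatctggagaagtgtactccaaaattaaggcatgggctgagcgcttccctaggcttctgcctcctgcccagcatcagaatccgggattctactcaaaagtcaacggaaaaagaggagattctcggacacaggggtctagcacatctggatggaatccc
Hspb1, chr5:135887669-135887918, plus strand: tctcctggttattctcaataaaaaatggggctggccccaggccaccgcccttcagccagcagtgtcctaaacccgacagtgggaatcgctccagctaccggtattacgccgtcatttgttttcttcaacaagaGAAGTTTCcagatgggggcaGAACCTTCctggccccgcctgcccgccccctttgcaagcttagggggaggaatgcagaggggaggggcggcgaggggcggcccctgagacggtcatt
Hspb8, chr5:116422865-116423114, minus strand: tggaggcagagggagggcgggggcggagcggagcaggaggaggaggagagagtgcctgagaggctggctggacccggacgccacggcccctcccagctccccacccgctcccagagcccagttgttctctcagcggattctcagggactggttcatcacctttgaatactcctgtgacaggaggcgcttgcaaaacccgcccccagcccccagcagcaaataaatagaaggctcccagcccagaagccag
The Hspb1 window held 2 matches to GAANNTTC, at 117 to 110 and 97 to 90 bases before the start, and none to TTCNNGAA. The windows of Hspb7, Hspb8 and Hspb11 held neither form. Of 32851 windows of the same length in the table, 6.69% held GAANNTTC, 7.17% held TTCNNGAA and 12.8% held either, with each motif searched on both strands. None of the 4 windows held a CArG box, the element of serum response factor, found in 1.47% of all windows, or a MEF2 site, found in 2.92%. A match is a description of letters in this window, and windows farther from the start were not searched.

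Hspb7 is a chaperone of heart and skeletal muscle that binds filamin C. The gene (ENSMUSG00000006221) lies on chromosome 4 at 141420779 to 141425311 (GRCm38, plus strand). Its normalised read counts were 12623, 12472 and 12522 in siSirt6 replicates 1 to 3, against 5314, 5541 and 5269 in Control replicates 1 to 3. The 3 siSirt6 libraries were close together and all far above the highest Control library. Hspb7 averaged 12539 ± 77.4 in siSirt6 and 5375 ± 146 in Control (SD, n = 3 each), giving a log2 fold change of 1.22 ± 0.023 (SE; limma, adjusted p = 1.95e-30). Its log2 fold change ranked 184th from the highest of the 7179 tested genes, with 2.55% of them above it, and 8th among the 2808 with a mean of at least 1000.

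Cryab encodes alpha B-crystallin, which was first known from the eye lens and in muscle protects desmin filaments. The gene (ENSMUSG00000032060) lies on chromosome 9 at 50751325 to 50756636 (plus strand). Its libraries held 28770, 29386 and 29019 in siSirt6 replicates 1 to 3, against 15954, 16357 and 16430 in Control replicates 1 to 3. The groups did not overlap, and within each group the libraries lay near each other. Cryab averaged 29058 ± 310 in siSirt6 and 16247 ± 257 in Control (SD, n = 3 each), giving a log2 fold change of 0.84 ± 0.017 (SE; limma, adjusted p = 2.48e-29).

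Hspb2 encodes a muscle chaperone that binds the myotonic dystrophy kinase. The gene (ENSMUSG00000038086) lies on chromosome 9 at 50751078 to 50752354 on the minus strand, head to head with Cryab. In GENCODE vM21 both genes share the 1030 bases from 50751325 to 50752354 on opposite strands. The library kit keeps strand, but whether the authors' counting used it is unknown, so reads from the shared stretch may be assigned to either gene or dropped. Hspb2 stood at 401.5, 396.9 and 333.0 in siSirt6 replicates 1 to 3, against 203.9, 241.5 and 206.7 in Control replicates 1 to 3. siSirt6 replicate 3 was the lowest of its group and still above every Control library. The mean was 377.1 ± 38.3 in siSirt6 and 217.4 ± 20.9 in Control (SD, n = 3 each), giving a log2 fold change of 0.79 ± 0.094 (SE; limma, adjusted p = 4.74e-09).

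Hspb1 encodes the mouse form of HSP27, a regulator of actin filaments that p38 signalling phosphorylates. The gene (ENSMUSG00000004951) lies on chromosome 5 at 135887919 to 135889563 (plus strand). Its normalised read counts were 11989, 11310 and 11292 in siSirt6 replicates 1 to 3, against 7419, 7338 and 7524 in Control replicates 1 to 3. siSirt6 replicate 1 was the highest library, and the groups did not overlap. Hspb1 averaged 11531 ± 398 in siSirt6 and 7427 ± 93.3 in Control (SD, n = 3 each), giving a log2 fold change of 0.63 ± 0.023 (SE; limma, adjusted p = 2.88e-22).

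Hspb8 encodes a chaperone that works with the co-chaperone BAG3 in removing damaged filamin. The gene (ENSMUSG00000041548) lies on chromosome 5 at 116408491 to 116422864 (minus strand). It stood at 1985, 1947 and 1899 in siSirt6 replicates 1 to 3, against 1578, 1513 and 1630 in Control replicates 1 to 3. The groups were separated, by a narrower margin than those of Hspb1. The mean was 1944 ± 42.8 in siSirt6 and 1574 ± 58.7 in Control (SD, n = 3 each), giving a log2 fold change of 0.30 ± 0.039 (SE; limma, adjusted p = 1.68e-08).

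Hspb11 (ENSMUSG00000063172), the intraflagellar transport gene on chromosome 4 at 107253593 to 107279938 (plus strand), stood at 310.5, 280.4 and 295.6 in siSirt6 replicates 1 to 3, against 207.8, 171.4 and 196.1 in Control replicates 1 to 3. The lowest siSirt6 library lay above the highest Control library. Its mean was 295.5 ± 15.05 in siSirt6 and 191.8 ± 18.6 in Control (SD, n = 3 each), giving a log2 fold change of 0.62 ± 0.098 (SE; limma, adjusted p = 9.45e-07). The groups of all 6 genes thus did not overlap, as was also found for 96.8% of tested genes in either direction, 49.0% upward and 47.8% downward.

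**Figure D1:**
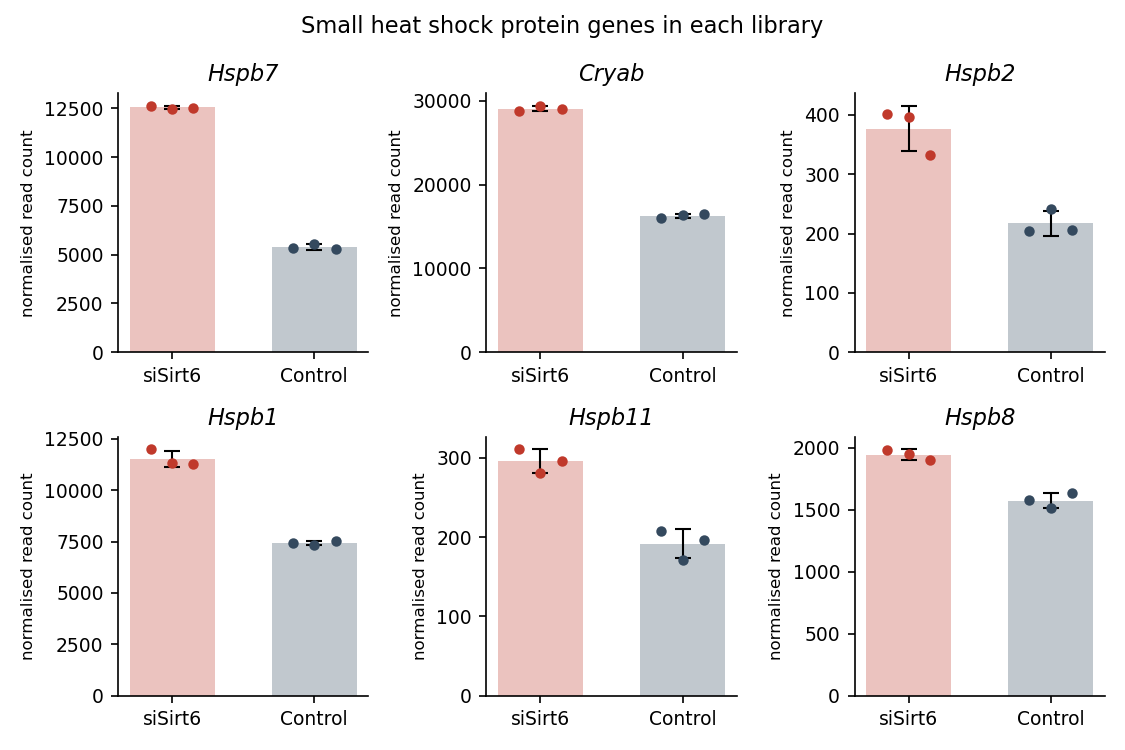
Normalised read counts (vertical axis, from 0) of the 6 genes in siSirt6 (left) and Control (right) libraries. Points are single libraries, bars are means and error bars are SDs of 3 libraries; every siSirt6 point lies above every Control point, with the largest ratio for Hspb7 at 2.33-fold and the smallest for Hspb8 at 1.24-fold.

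Levels of different genes were compared per kilobase of exon. On this scale Cryab was the highest member, at 19647 ± 210 in siSirt6 and 10985 ± 173 in Control (SD, n = 3 each). Hspb1 followed at 11184 ± 386 in siSirt6 and 7204 ± 90.5 in Control, and Hspb7 at 4528 ± 27.9 in siSirt6 and 1941 ± 52.6 in Control. Below them came Hspb8, at 996.8 ± 21.9 in siSirt6 and 807.0 ± 30.1 in Control. Hspb2, at 452.2 ± 45.9 in siSirt6 and 260.6 ± 25.1 in Control, and Hspb11, at 142.7 ± 7.26 in siSirt6 and 92.6 ± 8.99 in Control, were the lowest. The order was the same in both groups, and neighbours in it differed by more than their SDs. For Hspb2 the level also depends on how reads from the stretch shared with Cryab were assigned, which the SDs do not measure. The spread between libraries was 0.617% to 10.1% of the mean in siSirt6, against 0.902% for Hspb7 and 5.2% for Hspb2, the genes at these ends, from counting error alone.

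Together the 5 chaperone genes summed to 55769, 55511 and 55066 normalised read counts in siSirt6 replicates 1 to 3, against 30468, 30991 and 31060 in Control replicates 1 to 3. They took 0.362% ± 0.00061 of the listed signal in siSirt6 and 0.219% ± 0.0026 in Control (SD, n = 3 each). Within this sum the share of Cryab was 52.4% ± 0.72 in siSirt6 and 52.7% ± 0.28 in Control. Hspb7 took a larger part in siSirt6, 22.6% ± 0.14 against 17.4% ± 0.46 in Control. Hspb1 took a smaller part, 20.8% ± 0.62 in siSirt6 against 24.1% ± 0.36 in Control, and so did Hspb8, with 3.50% ± 0.055 in siSirt6 against 5.10% ± 0.19 in Control. These are shares of reads, so longer transcripts weigh more.

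**Figure D2:**
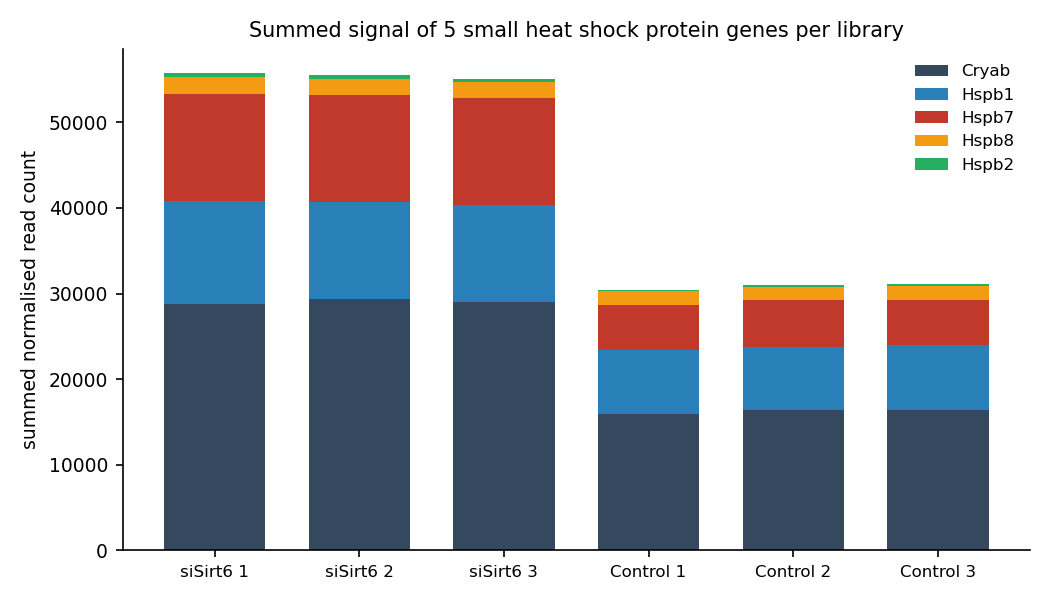
Summed normalised read count (vertical axis, from 0) of Cryab, Hspb1, Hspb7, Hspb8 and Hspb2, stacked per library, siSirt6 on the left and Control on the right. The siSirt6 sums lie between 55066 and 55769 and the Control sums between 30468 and 31060, with a wider Hspb7 segment in siSirt6.

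On the deposited scale the members changed by different amounts. The log2 difference between Hspb7 and Cryab was -1.21 ± 0.024 in siSirt6 and -1.60 ± 0.040 in Control (SD, n = 3 each), so that Hspb7 gained 0.38 on Cryab, with no overlap between the groups. The exact permutation test over the 6 libraries gave p = 0.1, 2-sided, which is the smallest that 3 against 3 allows, so the comparison could not pass 0.05. Over all 15 pairs of members, 10 had differences whose groups did not overlap, each with an exact p of 0.1 (0.15 after Benjamini-Hochberg adjustment over the pairs). Hspb7 was separated in this way from each of the other 5 genes, and Hspb8 was as well, with Hspb7 gaining 0.92 on Hspb8. The share of non-overlapping pairs among all genes was not computed, and 96.8% of tested genes did not overlap singly. The count of 10 therefore cannot be read as particular to these members. The length and GC trend was left in these differences. Cryab and its neighbour Hspb2 were not separated: their log2 difference was 6.27 ± 0.15 in siSirt6 and 6.22 ± 0.13 in Control, a shift of 0.048 within ranges of 6.16 to 6.44 in siSirt6 and 6.08 to 6.31 in Control (exact permutation p = 0.7). How reads from the stretch shared by Cryab and Hspb2 were assigned is unknown, and its part in their result was not tested. The 3 pairs among Hspb1, Hspb2 and Hspb11 also overlapped, with shifts between 0.009 and 0.167, as did Cryab and Hspb11 at 0.214.

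Genes with short transcripts were higher in siSirt6 as a class, and most members are short. The tested genes were divided by transcript length into 5 classes of near-equal size. In the class with the shortest transcripts (67 to 1799 nt), which holds Cryab, Hspb1, Hspb2 and Hspb11, 82.6% of genes had a log2 fold change above 0 and the median was 0.37. In the next class (1800 to 2852 nt), which holds Hspb7 and Hspb8, 66.0% did and the median was 0.22. Within its own class, Hspb7 was exceeded by 1.89% of genes, Cryab by 12.2%, Hspb2 by 13.2%, Hspb1 by 20%, Hspb11 by 20.4% and Hspb8 by 37.4%. After a trend on length and GC was taken out of every gene, the log2 fold change of Hspb7 was 1.11 in place of 1.22. That of Cryab was 0.46 in place of 0.84, that of Hspb2 0.34 in place of 0.79, that of Hspb1 0.25 in place of 0.63 and that of Hspb11 0.41 in place of 0.62. Hspb8 lost its call, at 0.073 in place of 0.30 (limma, adjusted p = 0.0973). On that scale 37.1% of 7130 genes were called higher and 36.9% lower. Scaling each library to its listed total moved the median of all tested genes by -0.119, to -0.034, and left all 6 members called higher, with log2 fold changes from 0.19 for Hspb8 to 1.10 for Hspb7; on that scale 37.7% of tested genes were called higher and 49.7% lower.

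**Figure D3:**
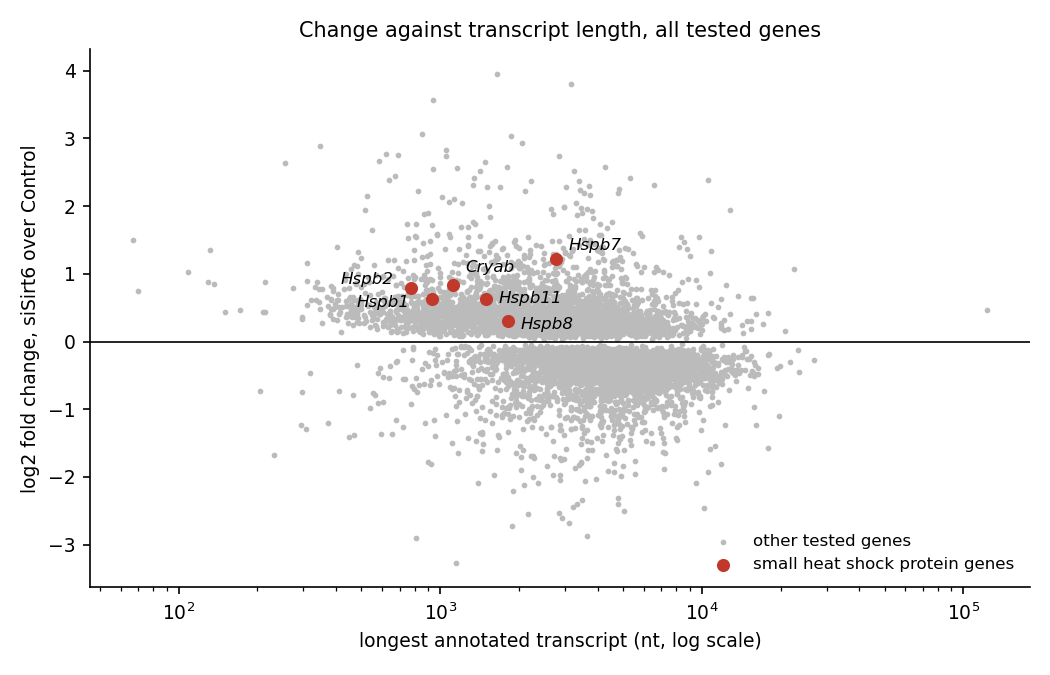
Log2 fold change of siSirt6 over Control (vertical axis) against the length of the longest annotated transcript (nt, log axis) for all tested genes in grey and the 6 members in red. Values lean upward among short transcripts, where Cryab, Hspb1, Hspb2 and Hspb11 lie, and Hspb7 stands at 1.22, with 1.89% of the genes in its length class above it.

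**Figure D4:**
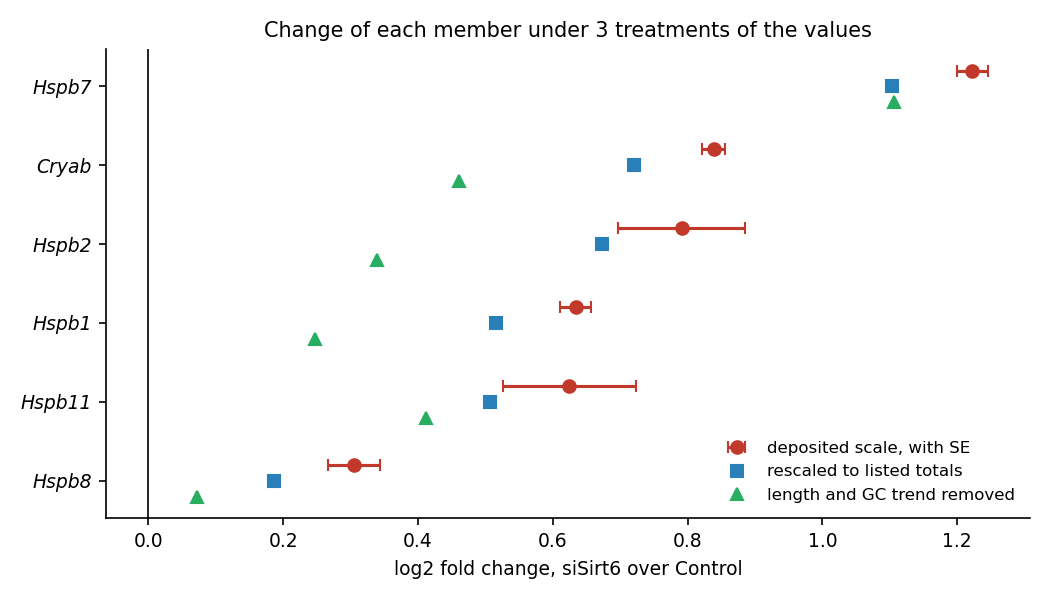
Log2 fold change of siSirt6 over Control (horizontal axis) for each member on the deposited scale (circles, with standard error), after scaling to listed totals (squares) and after removal of the length and GC trend (triangles). Hspb7 stays between 1.10 and 1.22, and Hspb8 falls to 0.073 with the trend removed.

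Other chaperone classes were taken from lists of known members. Counts of higher and lower genes, in these and the later lists, stand beside 50.5% of all tested genes called higher and 49.3% lower. Of 23 genes listed for HSP70, HSP110 and J proteins, 12 were in the tables, 7 higher and 5 lower, with a median log2 fold change of 0.16. The constitutive Hspa8 rose 1.16-fold, the mitochondrial Hspa9 1.21-fold and the J protein Dnajc7 1.33-fold. Hsph1, the HSP110 that heat shock induces, fell to 0.705 of its Control level, with 1258 ± 48.2 in siSirt6 and 1784 ± 96.8 in Control (SD, n = 3 each). The heat-inducible HSP70 genes Hspa1b and Hspa1a, named after their values were seen, fell to 0.717 and 0.74 of the Control level. The lists were not sorted by heat inducibility, so these falls do not describe heat-induced chaperones as a group. Hspa1a and Hspa1b are near-identical copies, and reads could be split between them.

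Of the 15 genes of HSP90 and its co-chaperones, 12 were tested, 10 higher and 2 lower, with a median log2 fold change of 0.21. Hsp90ab1 rose 1.25-fold, Hsp90aa1 1.16-fold and the kinase-specific co-chaperone Cdc37 1.28-fold, while Fkbp5, an immunophilin induced by glucocorticoids, fell to 0.82. All 10 chaperonin genes were higher, with a median of 0.26, with Cct5 of the cytosolic ring at 1.41-fold, the mitochondrial Hspd1 at 1.40-fold and Hspe1 at 1.36-fold, and Cct3 at 1.24-fold. After removal of the length and GC trend, the log2 fold change of Hspe1 was 0.12 in place of 0.45 and that of Cct5 0.30 in place of 0.49. That of Cct3 was 0.35 in place of 0.31. All 10 chaperonin genes stayed called higher, and their median was 0.26 on both scales. The median of the 5 small heat shock proteins was then 0.34 in place of 0.79. Of 6 genes for heat shock factors and their binding protein, 2 were in the tables. Hsf1 rose 1.16-fold, a call lost under listed totals (adjusted p = 0.0805 with limma), and Hsbp1, which binds HSF1, rose 1.17-fold but stood at a log2 fold change of -0.055 with the length and GC trend removed.

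In the BAG3 complex, in which HSPB8 acts, and among its filamin clients, 7 of 9 genes were in the tables, 5 higher and 2 lower, with a median of 0.23. The filamins Flna at 1.17-fold and Flnc at 1.29-fold rose, as did the autophagy receptor Sqstm1 at 1.21-fold. Bag3 itself, named after its value was seen, fell to 0.925, with 3135 ± 21.3 in siSirt6 and 3390 ± 82.1 in Control. The ubiquitin ligase Stub1, named likewise, fell to 0.892. Its groups overlapped, with siSirt6 replicate 1 at 1886 and Control replicate 3 at 1881. Of 19 intermediate filament and Z-disc genes, 10 were tested, 7 higher and 3 lower (median 0.15), against 5 higher and 4 lower under listed totals. The genes with the smallest p were Lmna at 1.26-fold, the cytolinker Plec at 1.24-fold, Pdlim7 at 1.38-fold and Actn1 at 1.16-fold, while Synm, an intermediate filament gene named after its value was seen, fell to 0.455. Des, which encodes the desmin that alpha B-crystallin protects, was not analysed here.

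**Figure D5:**
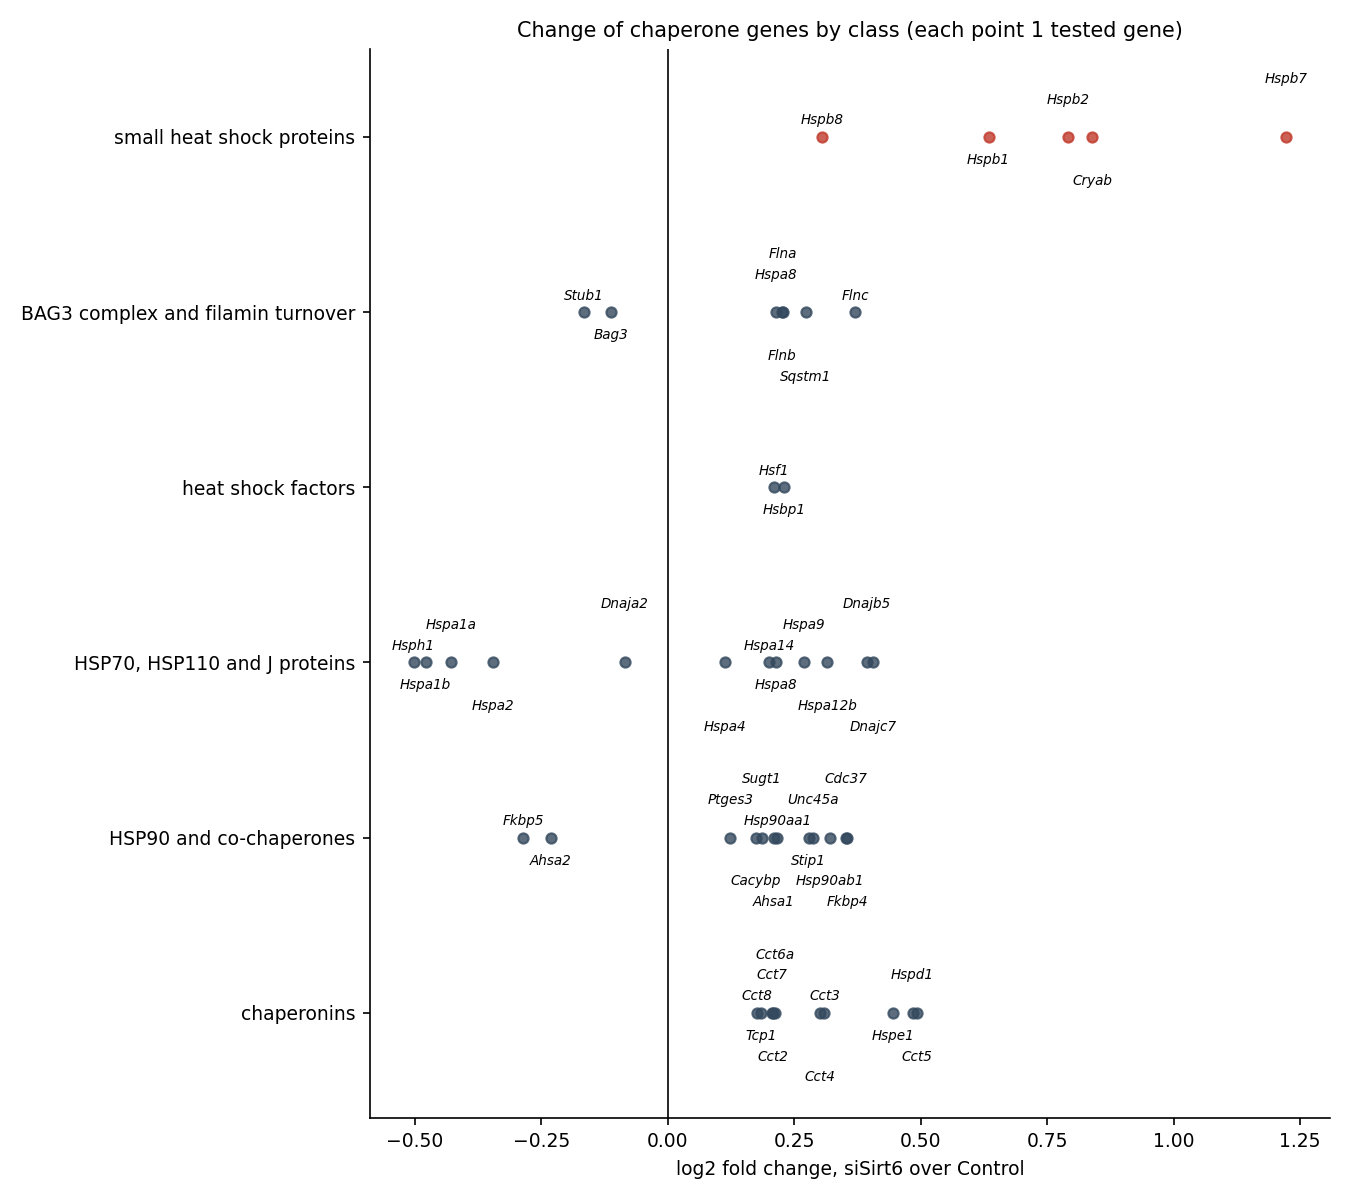
Log2 fold change of siSirt6 over Control (horizontal axis) for each tested gene of 6 chaperone lists, one list per line, with the small heat shock proteins in red at the top. On the deposited scale shown, the small heat shock proteins run from 0.30 to 1.22, and chaperonins and heat shock factors also lie above 0. The BAG3 list, HSP70, HSP110 and J proteins, and HSP90 and co-chaperones lie on both sides of 0. With the length and GC trend removed, medians are 0.34 for small heat shock proteins, 0.26 for chaperonins and 0.24 for the BAG3 list. They are 0.17 for HSP90 and co-chaperones, 0.13 for HSP70, HSP110 and J proteins and 0.052 for heat shock factors.

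Kinases listed for small heat shock proteins were divided, with 7 of 12 in the tables, 5 higher and 2 lower (median 0.18), against 3 higher and 3 lower with the length and GC trend removed. Mapkapk3 rose 1.44-fold and the p38 gene Mapk11 1.40-fold, and Prkg1, the cGMP-dependent kinase of smooth muscle, fell to 0.693. Mapk3, which encodes ERK1, rose 1.13-fold but stood at a log2 fold change of -0.078 with the length and GC trend removed. Of the others, named after their values were seen, Mapk12 rose 1.43-fold and Mapk14 fell to 0.926. Mapkapk2 rose 1.07-fold with overlapping groups and stood at -0.0056 with that trend removed. Among apoptosis genes, whose products include the caspases that alpha B-crystallin restrains, 9 of 12 were in the tables, 3 higher and 6 lower (median -0.40). The survival factor Mcl1 fell to 0.757, the apoptosome gene Apaf1 to 0.658 and the caspase inhibitor Xiap to 0.657, while Bak1 rose 1.41-fold.

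Several members are muscle genes, so markers of muscle and of other cells were read beside them. Sirt6 itself stood at 55.9 ± 10.1 in siSirt6 and 259.7 ± 9.62 in Control (SD, n = 3 each). Of 20 smooth muscle genes, 16 were tested, 12 higher and 4 lower, with a summed level of 181800 to 184610 in siSirt6 and 126120 to 127300 in Control. Acta2 rose 1.66-fold, Actg2 2.25-fold and Tpm1 1.496-fold, and Vcl fell to 0.491. The defining markers Tagln and Myh11, named after their values were seen, had normalised read counts of 348.3 and 730.8 in siSirt6 and 178.7 and 595.3 in Control. Of 32 markers of heart and skeletal muscle, 6 were in the tables and 4 passed the filter, 3 higher and 1 lower, and their summed level was 3545 to 3776 in siSirt6 and 1793 to 1811 in Control. Ankrd1, also a YAP target, rose 2.13-fold and gave 3324 of it in siSirt6 and 1562 in Control; Tnnt2 rose 1.48-fold and Tnnc1 2.02-fold, Nebl fell to 0.459, and most of the list, the cardiac myosins among them, was not analysed here.

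Markers of other cell types moved in both directions, as did all tested genes, 50.5% called higher and 49.3% lower. All 10 endothelial genes in the tables of 12 listed were higher, with a sum of 4471 to 4621 in siSirt6 and 2975 to 3217 in Control, from Flt1 at 1.28-fold to Cldn5 at 5.98-fold, with Cdh5 at 2.28-fold and Kdr at 2.97-fold. Cldn5 was low in Control, at 9.76, 18.5 and 8.69 in replicates 1 to 3, near the filter's minimum of 10. It stood at 98.9, 67.0 and 55.2 in siSirt6 replicates 1 to 3. Of 8 pericyte markers 5 were tested, 3 higher and 2 lower, with sums of 21471 to 21788 in siSirt6 and 19721 to 19985 in Control. Cspg4 rose 1.69-fold and Mcam 1.36-fold, Notch3 fell to 0.582, and Pdgfrb rose 1.08-fold but stood at a log2 fold change of -0.0088 under listed totals. Adventitial fibroblast markers were mostly lower (9 of 10 tested, 3 higher and 6 lower, sums of 164090 to 164390 in siSirt6 and 192490 to 195020 in Control), with Scara5 at 0.331, Gsn at 0.797 and Col1a1 at 0.855 of Control and Ly6a at 1.24-fold. Dpt and Lum, named after their values were seen, rose 1.64-fold and 1.23-fold. Most of these sums came from Gsn, at 57433 in siSirt6 and 72100 in Control, and Col1a1, at 89518 and 104690. After removal of the length and GC trend, Ly6a stood at a log2 fold change of -0.033 and Col1a1 at -0.044 in place of -0.23. Dpt then stood at 0.51 and Lum at 0.26. Adipocyte markers were 2 higher and 4 lower of 6 tested of 8 (sums 5850 to 6002 in siSirt6 and 7318 to 7539 in Control), with Plin4 at 0.627, Lpl at 0.769, Pparg at 0.685 and Adipoq at 1.36 of Control; 1 was called higher under listed totals. All 4 tested Schwann cell markers of 8 were lower (sums 680.3 to 690.0 in siSirt6 and 1038 to 1115 in Control): S100b stood at 0.444, Ngfr at 0.693 and Mbp at 0.749 of Control. The 3 macrophage markers tested of 12, C1qb, Lyz2 and Cd68, were at 1.26, 1.08 and 1.27 of Control (sums 1978 to 2018 in siSirt6 and 1777 to 1822 in Control), and none was called under listed totals. With the length and GC trend removed none was called higher and Lyz2 was called lower, at a log2 fold change of -0.16. In bulk RNA, a change in the number of cells of a type and a change in RNA per cell cannot be told apart, and the part of these markers in the rise of the small heat shock proteins was not tested.

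Around the members, genes starting within 250 kb were read where the tables held them. The 5 neighbours of the Cryab and Hspb2 pair were divided, with Fdxacb1, 16.9 kb from the start of Cryab, at 1.501-fold and Timm8b at 1.28-fold, and Nkapd1 at 0.69, Sdhd at 0.869 and Pts at 0.706 of Control. Near Hspb7, Zbtb17 rose 1.25-fold, Fblim1 1.31-fold and B330016D10Rik 1.58-fold, and Arhgef19 fell to 0.532. Of 7 genes near Hspb1, 6 were higher and 1 lower, from Upk3b at 0.798 to Ssc4d at 2.07-fold. Mdh2, Tmem120a, Rasa4 and Por lay between 1.19 and 1.28-fold and Ywhag at 1.05-fold. Among all tested genes, 50.5% were called higher and 49.3% lower. Near Hspb11, Mrpl37 rose 1.39-fold and Tmem59 fell to 0.912, and no gene near Hspb8 was in the tables. The call of Fdxacb1 was lost without siSirt6 replicate 1 (log2 fold change 0.38, limma adjusted p = 0.0751) and so was that of B330016D10Rik (0.55, adjusted p = 0.0537). No neighbour of Hspb7 or of the Cryab and Hspb2 pair reached the log2 fold change of the member beside it on the deposited scale. Near Hspb1, at 0.63, Ssc4d stood higher at 0.99 on that scale. With the length and GC trend removed, Fdxacb1 at 0.51 stood above Cryab at 0.46. Ssc4d at 0.89 and Rasa4 at 0.32 then stood above Hspb1 at 0.25, and Mrpl37 was level with Hspb11, both at 0.41. Timm8b stood at a log2 fold change of -0.12 with the length and GC trend removed and Ywhag at -0.054 under listed totals. Mdh2, at 0.017 in place of 0.26, and Tmem120a, at 0.061 in place of 0.36, lost their calls with that trend removed.

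Genes whose pattern over the 6 libraries was most like each member were ranked by the root mean square difference of log2 values set to the Control mean, among 6764 named genes. The pattern of Cryab was nearest to that of Cd3eap, at 0.020, followed by Vcan, Arf1, Mybbp1a and Blvrb, all at 0.037 or less. For Hspb7 the nearest included Tubb3 at 0.043, Tuba4a, Esd and Mocs2, up to 0.065. For Hspb1 they were Pgk1 at 0.024, Prmt1, Odc1, Tuba1a and Nhp2, up to 0.029. For Hspb2 they were Rabl2 at 0.070, Sphk1, Ch25h, Gdf15 and Rpl6l, up to 0.093. For Hspb8 they were Slc11a2 at 0.014, Emp2, Eif1ax, Cchcr1 and Vac14, up to 0.022, and for Hspb11 Ctla2a at 0.044, Ruvbl2, Sh3kbp1, Slc19a1 and Slc9a3r2, up to 0.058. The median distance ran from 0.345 for Hspb8 to 0.935 for Hspb7. No member was among the 5 genes nearest to another.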

How the data were processed

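RNA was sequenced in 3 siSirt6 and 3 Control samples, 1 deposited table per library. Per the labels, the mRNA kit keeps strand. Build mm10 and the tools HTSeq, HISAT2, Trimmomatic and Cufflinks, with no role or version, are named in the submitters' processing notes. The deposited signal values carry no header on their normalisation. Judged from the values, each column is read counts divided by 1 factor per library (0.9609 to 1.0354), since 100% came out whole within 0.01 reads. The listed genes took 14458847 to 15526399 reads per library; the whole depth is unknown.

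The main test was limma 3.58.1 (R 4.3.3; 2-sided, with trend and robust variance) on log2(value + 1), which understates the change of low genes, over the 7179 genes with at least 10 in at least 3 libraries, with Benjamini-Hochberg adjustment over all of them. The length and GC trend was fitted to the log2 fold changes with natural splines on log2 length of the longest transcript and on GC percent, and subtracted from the siSirt6 libraries. N-fold values are ratios of group means. Per-library log2 differences between 2 members were compared between the groups with an exact permutation test over samples (scipy 1.17.1). The procedure was tested on simulated data in which 200 genes changed and no length trend was set. These data differ from that setting, so the simulation does not show how the procedure behaves on them. Positions and lengths came from GENCODE vM21 (7332 of 7384 identifiers matched). Count tests (limma-voom, edgeR 4.0.16, DESeq2 1.42.0) ran on 5 libraries, since an automatic check of the unit did not accept the step of siSirt6 replicate 1. Libraries of 1 group differed by 1.94 to 2.49 times counting variance, more than 1 library deposited again would; repeat preparations of 1 RNA are not told apart by this.

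The members and lists were chosen with earlier results of these data known. From each list the 4 genes with the smallest p are named, with all listed neighbours within 250 kb and the 5 nearest patterns per member; others are said to be named after their values were seen. Some genes that these rules name are not reported here. Same-numbered libraries did not deviate together, and no column was left without a sample.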

Additional observations from a re-analysis of the deposited data

How the results depend on the processing

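Of 18 alternatives (pseudocounts of 0.5 and 5, no filter or a stricter filter, listed totals, TMM, length and GC trend removed, 3 count tests on 5 libraries, adjustment over all 55536 annotated genes, each library left out and the replicate block), Cryab, Hspb1, Hspb2, Hspb7 and Hspb11 kept their direction and call under all, and Hspb8 under 17. With the length and GC trend removed, Hspb8 stood at a log2 fold change of 0.073 and lost its call. Without 1 library, log2 fold changes ran from 1.21 to 1.24 for Hspb7, 0.83 to 0.85 for Cryab, 0.74 to 0.88 for Hspb2, 0.61 to 0.65 for Hspb1, 0.55 to 0.68 for Hspb11 and 0.28 to 0.33 for Hspb8. The deviations of same-numbered libraries correlated at -0.019, 0.027 and -0.001. This does not show whether such libraries shared an animal, a culture or a batch. With the replicate block, Hspb7 stayed at 1.22 and Cryab at 0.84, with 3629 genes called higher and 3540 lower, against 3624 and 3542 without it. Among the other named genes, those that reversed with the trend removed were C1qb (-0.065), Hsbp1 (-0.055), Ly6a (-0.033), Lyz2 (-0.16), Mapk3 (-0.078), Mapkapk2 (-0.0056) and Timm8b (-0.12). Under listed totals they were Lyz2 (-0.0097), Mapkapk2 (-0.0204), Pdgfrb (-0.0088) and Ywhag (-0.054). The cause was not tested. Calls were lost in some alternatives for Cd68, Fdxacb1, B330016D10Rik, Hsf1, Mbp, Mdh2 and Tmem120a as well. Leaving out 1 library ended the call of Cd68 (without Control replicate 2 or siSirt6 replicate 1), and moved the adipocyte markers called higher to 1 (without Control replicate 2) and the pericyte markers called lower to 1 (without siSirt6 replicate 3). Hspb2 and Hspb11 have the fewest reads and the widest errors of the members.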
